A study of Rattus norvegicus and Bos taurus with 6 samples.

Results

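The 10 genes described here belong to 3 systems that act on the tone of blood vessels: endothelin (the ligand gene Edn1 and the receptor genes Ednra and Ednrb), the alpha-adrenergic receptors (Adra1a, Adra1b, Adra1d and Adra2a) and the serotonin receptors (Htr2a, Htr2b and Htr1b). They were matched by symbol, in any case, and each had 1 row in all 6 single-nucleus RNA-seq (snRNAseq) libraries, whose tables list 25629 to 38697 genes. The libraries hold 19424 nuclei. The rule that gathers them uses symbols and no level, though earlier results of these data were known when the set was drawn up.

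Each library stands for 1 condition, with no replicate. The 5 rat libraries came from male SS/HsdMcwiCrl (Dahl salt-sensitive) rats supplied by Charles River, kept at 22 °C and 50% humidity under a 12:12 light cycle, labelled as free of disease and with snap-frozen tissue. Their depots were mesenteric perivascular fat (mesPVAT, 1 library made with the 10x Genomics 3′ kit as batch 1 and another made with the Parse Evercode WT v3 kit as batch 2), retroperitoneal (RP) fat, thoracic aorta perivascular fat (taPVAT) and subscapular brown fat (BAT), the last 3 also with the Parse kit in batch 2. The sixth library, also Parse and batch 2, came from subcutaneous flank fat (cow WAT, or cow sWAT in the plots) of female lactating Holstein cattle kept in tie-stalls. The age of the animals and the number that went into a library are not given in the sources used here. Between cow and rat, species, sex, depot and details of nuclei isolation cannot be told apart. By the paper's methods taPVAT was spun at a lower speed than the white rat depots, so depot and isolation cannot be told apart there either.

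Endothelin-1 is made chiefly by endothelial cells and binds the receptors ETA (Ednra) and ETB (Ednrb), ETA on vascular smooth muscle raising calcium and contracting the vessel, ETB on endothelium releasing relaxing factors and on muscle also contracting it. The alpha-1 receptors answer noradrenaline from sympathetic nerves and couple, like ETA and 5-HT2A/2B (Htr2a, Htr2b), to Gq, phospholipase C and calcium release. The alpha-2A receptor (Adra2a) and 5-HT1B (Htr1b) couple to Gi and lower cyclic AMP, and the alpha-2A receptor restrains lipolysis in fat cells of several species.

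The levels below are unique molecular identifiers (UMIs) summed over all deposited nuclei of a library and scaled to CPM, UMIs per 1000000. Intervals are 95% and exact, Poisson for CPM and binomial for shares, and cover counting error only. With 1 library per condition no test between conditions exists and none was run. A gene with no UMI is given with the level that 3 UMIs would have. Levels are set side by side for 1 gene at a time, since gene length and capture differ between genes.

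Depth differed widely: total UMIs ran from 845316 to 16827260 and the median per nucleus from 161 (10x mesPVAT) and 213 to 346 (the white rat Parse libraries) to 1246 (taPVAT), 1706 (BAT) and 3530 (cow WAT). The libraries labelled mesPVAT and RP fat (Parse) stand in the opposite order of genes per nucleus to that which the study's text gives for these tissues, with medians of 304 and 197, so they are named by their labels throughout. Whether these labels are exchanged was not tested, and the main ratios that use one of these libraries are also given with the labels turned. No barcode was shared between any pair of libraries, which says nothing about the labels. The adipocyte gene Plin1 was detected in all 6, at 164 to 2501 CPM. Ucp1, the uncoupling protein of brown fat, stood at 1782 CPM in taPVAT and 2072 in BAT. It was at 63.4 and 89.9 CPM in the libraries labelled mesPVAT and RP fat, 0.808 in 10x mesPVAT and 0.654 in cow WAT.

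To place a member in a cell class, nuclei with a UMI of exactly 1 of 4 markers were used: Plin1 (adipocyte), Ptprb (endothelial), Pdgfra (adipose stem and progenitor cells, ASPC) and Notch3 (mural cells, that is smooth muscle and pericytes). A member led in a class when its CPM there, after 1 UMI was added to each class, was at least 2 times that of the next class, and it entered with at least 20 UMIs over the 4. Nuclei with the immune marker Ptprc and none of the 4 served as background. They are a cell class of their own, so a level near theirs cannot tell whether it is background. Taking nuclei by a single marker kept few of them in the white rat libraries, where 64.4% to 85.7% of nuclei had none of the 4, against 14.1% to 32.4% in taPVAT, BAT and cow WAT.

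Edn1 (chr17:22660799-22666687 in GRCr8) and Ednrb (chr15:87055490-87086765) are the ligand and one of its receptors, and upstream sequence is shown for this pair. The sequences are the first 150 of the 250 bases before the start site in the RefSeq promoter table for GRCr8, read 5′ to 3′ on the minus strand, at chr17:22666788-22666937 and chr15:87086866-87087015. Capitals mark matches on either strand to a TATA box (TATAAA) or the core of a GATA site (GATAA, which reads TTATC on the other strand).
Edn1: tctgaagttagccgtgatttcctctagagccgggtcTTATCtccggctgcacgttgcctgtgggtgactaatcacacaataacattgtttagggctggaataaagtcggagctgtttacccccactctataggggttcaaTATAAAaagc
Ednrb: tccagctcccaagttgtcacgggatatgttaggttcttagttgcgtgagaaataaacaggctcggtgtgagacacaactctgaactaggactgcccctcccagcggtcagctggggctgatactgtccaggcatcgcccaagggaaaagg
In Edn1 the TATAAA match lay at positions -110 to -105 and the GATAA match at -214 to -210. Searched over the whole 250 bases on both strands, 12.9% of the 33469 promoters in the table held TATAAA, 23.5% GATAA, 6.34% the AP-1 motif TGANTCA and 1.5% a CArG box, the serum response element core. Of the 8 members with a promoter in the table, only Edn1 held a match to any of these 4 motifs, which says nothing about other sequence or about any factor.

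Edn1, the ligand, was high in 1 library. It stood at 94.5 CPM (117 UMIs, interval 78.2 to 113) in 10x mesPVAT, 1.21 (2 UMIs) for the library labelled mesPVAT, 2.37 (2 UMIs) in that labelled RP fat, 3.14 (16 UMIs) for taPVAT, 0.633 (4 UMIs) for BAT and, for cow WAT, 5.65 (95 UMIs, 4.57 to 6.90). The 10x library was thus above the other 5, and 78.3 times the Parse library with the same tissue label (interval 21.2 to 654, from 117 and 2 UMIs). Against the library labelled RP fat, also with 2 UMIs, it was 39.96 times (10.8 to 334). Kit, batch, nuclei isolation and, by the paper's methods, genome build differ between the 10x and Parse libraries together with the level. Against the library labelled RP fat the depot label differs as well. These cannot be told apart.

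By cell class, Edn1 could be tested in cow WAT alone. It led there in Ptprb nuclei, at 14.2 CPM (27 UMIs) against 2.42 in Pdgfra nuclei, 0.822 in Notch3 nuclei and no UMI in Plin1 nuclei. It was 4.56 times the next class, and 4.1% of 14939 genes tested led in this class there. With overlapping classes or classes from marker lists it led in none, at 1.72 and 1.82 times. The Ptprc nuclei in cow WAT stood at 9.07 CPM (8 UMIs in 3 nuclei, 3.92 to 17.9), which overlaps the Ptprb interval (9.35 to 20.6). The interval takes UMIs as independent, though these lay in 3 nuclei. The overlap therefore cannot tell whether the Ptprb level is background. Among cow nuclei with an Edn1 UMI, 81.7% (69.6 to 90.5, 49 of 60) also had Ptprb, where their depth alone would give 48.7%. In taPVAT 9 of 13 Edn1 nuclei had Ptprb, 69.2% (38.6 to 90.9) beside 25.8% from depth. In 10x mesPVAT the Ptprb nuclei stood at 279 CPM (8 UMIs, 120.5 to 550) and the Plin1 nuclei at 46.9 (9 UMIs, 21.5 to 89.1), 5.95 times lower (2.00 to 17.4), but 100 of the 117 UMIs fell in nuclei with none of the 4 markers. Nuclei placed by lists of markers in place of 1 gene gave 404 CPM in endothelial-like nuclei (22 UMIs), 354 in lymphatic-like nuclei (6 UMIs), 36.1 in adipocyte-like nuclei (15 UMIs) and 134 in nuclei that no list named (71 UMIs).

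**Figure D1:**
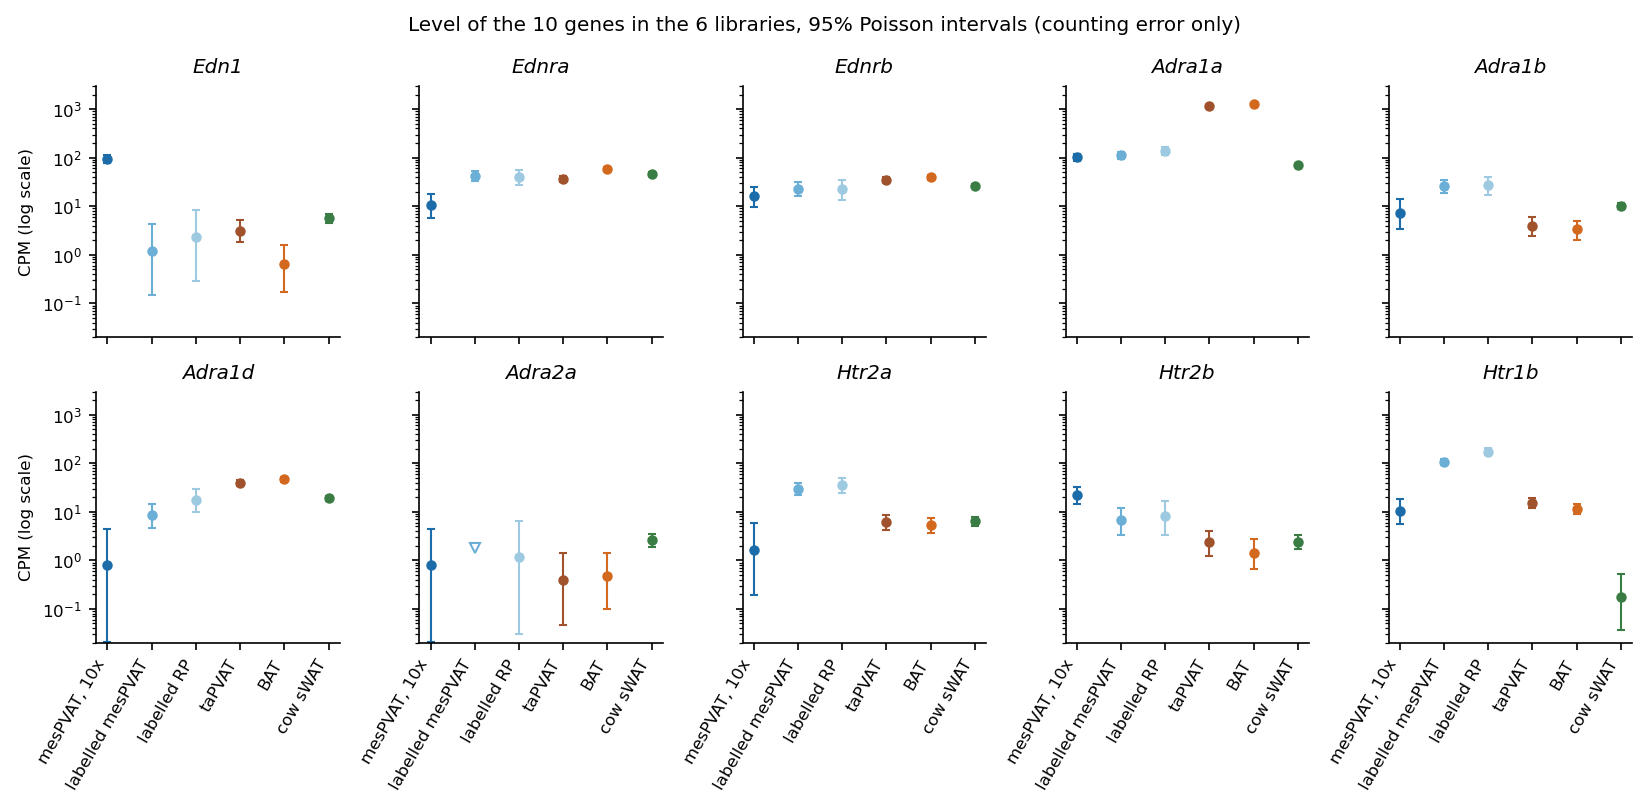
Level of each of the 10 genes (1 panel each) in CPM on a log axis in the 6 libraries; points are libraries, bars 95% Poisson intervals and an open triangle a gene with no UMI, drawn at the level of 3 UMIs. Edn1 was at 94.5 CPM in 10x mesPVAT and at most 5.65 elsewhere, Adra1a at 1182 and 1273 in taPVAT and BAT, and Htr1b at 107 and 173 in the white rat Parse libraries.

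Ednra (chr19:47137360-47207961), the ETA receptor gene, was a mural gene in taPVAT, BAT and cow WAT. Its CPM over all nuclei was 10.5 (13 UMIs) in 10x mesPVAT, 41.65 (69 UMIs) for the library labelled mesPVAT, 40.2 (34 UMIs) in that labelled RP fat, 36.5 (186 UMIs) for taPVAT, 59.5 (376 UMIs) for BAT and, for cow WAT, 46.9 (789 UMIs). The 10x library lay below the other 5. The intervals of taPVAT (31.4 to 42.1), cow WAT (43.7 to 50.3) and BAT (53.7 to 65.8) did not overlap, in that order, while those of the libraries labelled mesPVAT (32.4 to 52.7) and RP fat (27.9 to 56.2) were wider and spanned parts of theirs.

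Within the classes the spread was far wider. In taPVAT Ednra stood at 580 CPM in Notch3 nuclei (40 UMIs, 414 to 790), against 6.68 in Plin1, 19.5 in Ptprb and 29.5 in Pdgfra nuclei. In BAT it was at 621 (90 UMIs, 499 to 763) in Notch3 nuclei and 9.75, 34.7 and 42.9 in the other 3. In cow WAT the Notch3 value was 210.3 (256 UMIs, 185 to 238), and the others 9.53, 14.2 and 19.4. Ednra therefore led in the Notch3 class in all 3, by 15.1, 7.31 and 10.5 times the next class, and the background class of Ptprc nuclei stood at 23.6, 42.1 and 23.8 CPM. The share of Notch3 nuclei with an Ednra UMI was 29.4% (19.0 to 41.7), 54.8% (42.7 to 66.5) and 38.4% (32.7 to 44.4), against 2.00%, 3.92% and 6.34% of Ptprc nuclei, whose median depths of 704, 881 and 3081 UMIs were near those of the Notch3 nuclei (852.5, 1226 and 3328).

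Ednrb (chr15:87055490-87086765), the ETB receptor gene, shared the mural lead in taPVAT and BAT. Over all nuclei it stood at 16.2 CPM (20 UMIs), 22.9 (38 UMIs), 22.5 (19 UMIs), 34.9 (178 UMIs), 39.4 (249 UMIs) and 26.0 (438 UMIs) in 10x mesPVAT, the libraries labelled mesPVAT and RP fat, taPVAT, BAT and cow WAT. These 6 levels lay closer together than those of any other member detected in all libraries. In Notch3 nuclei it was at 275.5 CPM (19 UMIs, 166 to 430) in taPVAT and 331 (48 UMIs, 244 to 439) in BAT. The Ptprb nuclei followed at 58.5 (32.7 to 96.5) and 69.3 (46.8 to 99.0), 5.72 times (2.82 to 11.2) and 9.39 times (5.34 to 16.6) the Plin1 nuclei. The Ptprc background was 7.88 CPM (1 UMI, 0.199 to 43.9) in taPVAT and 63.2 (3 UMIs, 13.03 to 185) in BAT. The Ptprb level in BAT did not stand above it, and in taPVAT the intervals overlapped. With so few background UMIs this cannot tell whether the Ptprb level is background. In cow WAT the Notch3 and Ptprb nuclei were level, at 39.4 (29.1 to 52.3) and 36.25 (28.2 to 45.9), a ratio of 1.09 (0.737 to 1.60), so Ednrb led in no class there. The Ptprc background in cow WAT, 37.4 CPM (25.8 to 52.6), was as high as both, while Plin1 nuclei stood at 1.91 (2 UMIs). Of the nuclei with Ednrb, 40.15% (31.7 to 49.0) in taPVAT also had Ptprb, beside 25.4% from depth. The share was 49.1% (41.35 to 56.9) beside 30.55% in BAT and 57.8% (51.3 to 64.1) beside 44.7% in cow WAT.

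The number of members leading in the Notch3 class was 2 of 5 tested in taPVAT (Ednra and Ednrb), where 7.66% of all 11327 genes tested led in that class. In BAT the same pair led, again 2 of 5 tested, beside 2.18% of 12042 genes. In the Pdgfra class of BAT, of 19 nuclei, 39.8% of genes met the rule, Htr1b on 1 UMI among them. Fewer genes could therefore lead in its other classes, which lowers the 2.18%. In cow WAT 4 of 7 tested led (Ednra, Adra1b, Adra1d and Htr2a), beside 3.36% of 14939 genes. The rule does not compare with Ptprc nuclei. Notch3 over Ptprc was 8.831 (5.655 to 14.51) for Ednra and 4.395 (2.529 to 8.173) for Adra1d. It was 1.783 (0.9103 to 3.702) for Adra1b and 1.449 (0.585 to 3.91) for Htr2a. These last intervals include 1, so the leads of Adra1b and Htr2a were not set apart from Ptprc nuclei. With overlapping classes the number of cow WAT leads fell from 4 to 1 in the Notch3 class. In the white rat libraries 0 of 1 tested led there in 10x mesPVAT (11.5% of all genes), 0 of 3 in the library labelled mesPVAT (5.36%) and 1 of 2 in that labelled RP fat (2.61%), which was Adra1a on 5 UMIs. In the other 3 classes no member led in 10x mesPVAT, where 1.84% (Plin1), 3.52% (Ptprb) and 5.02% (Pdgfra) of genes did, in the library labelled mesPVAT (2%, 0.92% and 6.82%) or in that labelled RP fat (1.79%, 0.581% and 1.26%). None led in the Ptprb class of taPVAT (3.43% of genes) or BAT (2.78%), the Pdgfra class of taPVAT (6.11%) or cow WAT (2.28%), or the Plin1 class of cow WAT (5.34%).

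Ednra and Ednrb met in the same nuclei. In BAT 59 nuclei held both, which is 31.9% of the 185 with Ednra and 34.9% of the 169 with Ednrb, where 6.26% of all nuclei had Ednrb and the depth of the Ednra nuclei alone would give 8.66%. In taPVAT 25 nuclei held both, 20.3% of the Ednra nuclei beside 4.87% of all and 5.90% from depth. In cow WAT 75 did, 22.3% of the Ednra nuclei beside 10.6% of all and 16.1% from depth. Of the nuclei with Ednra, 48.8% in taPVAT, 60.5% for BAT and, for cow WAT, 69.4% also had a Notch3 UMI, and depth alone would give 9.72%, 11.7% and 33.5%. In the library labelled mesPVAT the same share was 10.6% (4.37 to 20.6, 7 of 66) beside 8.65% from depth.

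**Figure D2:**
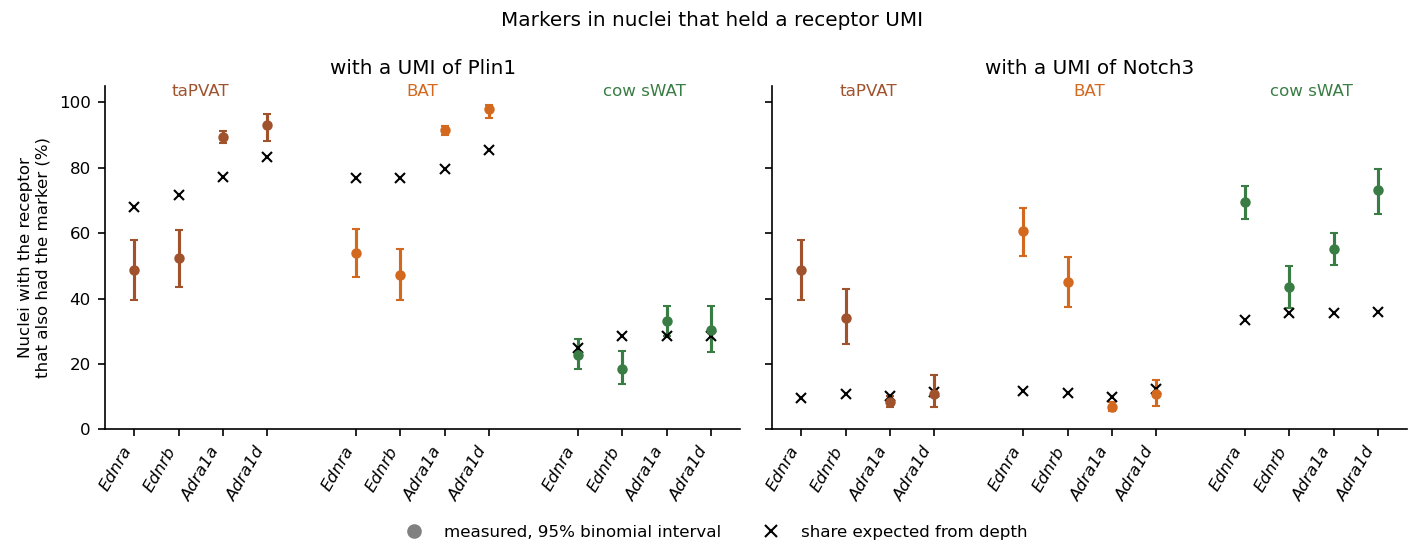
Share (%) of the nuclei with a UMI of Ednra, Ednrb, Adra1a or Adra1d that also had a UMI of Plin1 (left) or Notch3 (right) in taPVAT, BAT and cow WAT; points are measured shares with 95% binomial intervals and crosses the share expected from the depth of those nuclei. For Notch3 the measured Ednra shares, 48.8%, 60.5% and 69.4%, lie above the crosses in the 3 libraries, and for Plin1 those of Adra1a and Adra1d lie above them in taPVAT and BAT.

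All Notch3 nuclei were split into a smooth muscle part (with Myh11, Acta2, Tagln or Cnn1) and a pericyte part (none of these, with Rgs5, Kcnj8, Abcc9 or Cspg4). Nuclei that also held another of the 4 markers were included here. In taPVAT 222 nuclei had Notch3, and 68 had it alone. Adra1a stood at 799.7 and 659.1 CPM in these parts of taPVAT, against 246.5 in nuclei with Notch3 alone. The part that RNA of other cells has in these values was not tested. The intervals of the endothelin receptors overlapped between the parts. Ednra stood at 188 CPM (150.4 to 233) in the smooth muscle part and 163 (99.4 to 251) in the pericyte part of taPVAT, at 335 (292 to 382) and 340 (252 to 448) in BAT, and at 86.8 (79.6 to 94.5) and 82.5 (66.4 to 101) in cow WAT. Ednrb was at 139.6 (107 to 179) and 89.5 (44.7 to 160.1) in taPVAT, 164 and 170 in BAT and 31.2 and 29.3 in cow WAT. A difference such as that of Ednrb in taPVAT could not be resolved at this depth. In cow WAT Adra1d differed, at 29.75 CPM (25.6 to 34.4) in the smooth muscle part and 57.8 (44.4 to 73.9) in the pericyte part. The smooth muscle nuclei were the deeper ones there, with a median of 7386 UMIs against 5017, and the part of depth was not tested.

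Adra1a (chr15:45005648-45111416), the alpha-1A receptor gene, was an adipocyte gene in the brown depots. Its CPM was 101 (125 UMIs, 84.1 to 120) in 10x mesPVAT, 112 (185 UMIs, 96.2 to 129) for the library labelled mesPVAT, 137 (116 UMIs, 113 to 165) in that labelled RP fat, 1182 (6030 UMIs) for taPVAT, 1273 (8044 UMIs) for BAT and, for cow WAT, 70.1 (1180 UMIs, 66.2 to 74.2). Both brown libraries lay about an order of magnitude above the other 4, and the intervals of the 3 white rat libraries overlapped. The ratio was 10.6 (9.15 to 12.3) for taPVAT over the library labelled mesPVAT, and 9.28 (7.72 to 11.2) for BAT over that labelled RP fat, or 8.62 (7.17 to 10.4) and 11.4 (9.855 to 13.3) with the labels turned. Between taPVAT and BAT it was 0.929 (0.898 to 0.960). The sublibraries gave 1164 and 1202 CPM in taPVAT and 1321 and 1225 in BAT.

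The share of nuclei with an Adra1a UMI was 45.9% in taPVAT and 58.1% in BAT, against 1.97% in 10x mesPVAT, 5.42% and 3.85% in the white rat Parse libraries and 18.0% in cow WAT. Depth moved these shares. With nuclei thinned to 200 UMIs, they became 14.05% and 17.5% in taPVAT and BAT. They were 2.12%, 2.31% and 2.42% in the white rat libraries and 1.14% in cow WAT. The brown libraries thus stayed above and cow WAT fell below the white rat ones. Shallower nuclei were left out, 3788 of 5887 in 10x mesPVAT and 476 of 3028 and 1302 of 2805 in the libraries labelled mesPVAT and RP fat. No nucleus of taPVAT, BAT or cow WAT was left out, so the white rat values rest on their deeper nuclei.

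**Figure D3:**
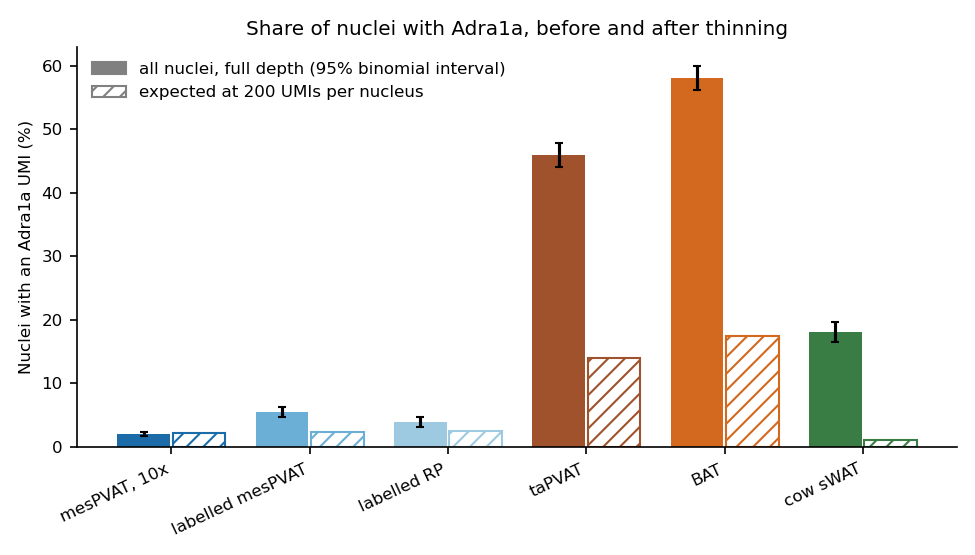
Share (%) of nuclei with a UMI of Adra1a in each library, at full depth (filled bars, 95% binomial intervals). Hatched bars give the share computed with nuclei of at least 200 UMIs thinned to 200, shallower nuclei left out. At 200 UMIs the shares are 14.05% and 17.5% in taPVAT and BAT and 1.14% to 2.42% in the other 4.

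In Plin1 nuclei Adra1a stood at 1600 CPM (1551 to 1650) in taPVAT and 1682 (1639 to 1726) in BAT, and 69.0% and 78.8% of these nuclei held a UMI. The Ptprb nuclei stood at 81.9 and 83.2 CPM, Notch3 nuclei at 246.5 and 138, Pdgfra nuclei at 157 and 773, and Ptprc nuclei at 150 and 126. Adra1a led in Plin1 nuclei in both, by 6.13 and 2.06 times the next class, where 4.41% and 3.04% of all genes did. It was the 1 member to do so. With overlapping classes it led in neither, at 1.56 and 1.68 times, and the BAT value did not reach 3-fold. The BAT value of 773 rested on 18 UMIs in only 19 Pdgfra nuclei. In that class 39.8% of all genes met the rule, so fewer could lead in Plin1 nuclei of BAT. Of the nuclei with Adra1a, 89.5% (87.6 to 91.1) in taPVAT and 91.6% (90.1 to 92.9) in BAT had Plin1, beside 77.3% and 79.5% from depth.

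In 10x mesPVAT Adra1a led in no class. Plin1 nuclei stood at 151 CPM (29 UMIs, 101.3 to 217) and Pdgfra nuclei at 183 (4 UMIs). Ptprb, Notch3 and Ptprc nuclei had no UMI, where 3 UMIs would be 104.6, 409 and 150.1 CPM. The lower bound of the Plin1 over Ptprb ratio was 1.10. Of its 116 Adra1a nuclei 22.4% (15.2 to 31.1) had Plin1, beside 14.8% from depth. In the white rat Parse libraries Adra1a did not lead in Plin1 nuclei. In the library labelled mesPVAT Adra1a was at 77.1 CPM (52.0 to 110) in Plin1, 143 (90.6 to 214) in Ptprb, 192 (70.3 to 417) in Notch3 and 170 (81.6 to 313) in Ptprc nuclei. The share of Plin1 nuclei with a UMI was 5.22% (3.52 to 7.41), at a median depth of 544 UMIs. It did not exceed that of Ptprc nuclei, 8.11% (3.78 to 14.8), at 408 UMIs. Adra1a is therefore not placed in adipocytes there, and whether they express it at a low level was not tested. In that labelled RP fat the Plin1 and Ptprc shares, 4.17% (2.02 to 7.53) and 1.92% (0.0487 to 10.3), overlapped. Plin1 nuclei of taPVAT were 20.8 times (14.5 to 30.8) those of the library labelled mesPVAT in Adra1a CPM, and those of BAT 14.5 times (7.89 to 30.3) those of that labelled RP fat, while Plin1 itself was 0.737 and 0.797 times as high. With the labels turned, the Adra1a ratios were 13.8 (7.505 to 28.8) for taPVAT and 21.8 (15.3 to 32.4) for BAT. Ucp1 in the same Plin1 nuclei was also higher, at 49.8 and 26.3 times in the pairs named first. Plin1 nuclei of 10x mesPVAT and cow WAT had no Ucp1 UMI, the lower bounds for taPVAT over them being 126 and 691. In Adra1a taPVAT was 10.6 times (7.36 to 15.8) and 15.1 times (12.5 to 18.4) those nuclei. The part that brown-fat RNA has in the Adra1a UMIs of the white libraries was not tested.

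In cow WAT the order of classes was another one. Notch3 nuclei stood at 165 CPM (143 to 190), Plin1 nuclei at 106 (87.0 to 127), Pdgfra nuclei at 25.8, Ptprb nuclei at 19.97 and Ptprc nuclei at 22.7. Adra1a in Plin1 nuclei was thus 0.641 times (0.503 to 0.812) that in Notch3 nuclei, where it was 6.49 times (4.05 to 11.2) in taPVAT and 12.2 times (7.89 to 19.98) in BAT. The libraries labelled mesPVAT and RP fat gave 0.402 (0.165 to 1.18) and 0.529 (0.165 to 1.97), on few UMIs. In Notch3 nuclei taPVAT, BAT and cow WAT overlapped, at 246.5 (144 to 395), 138 (84.3 to 213) and 165 CPM. The Plin1 nuclei of taPVAT were 15.1 times (12.5 to 18.4) those of cow WAT. Plin1 in those nuclei was 5.04 times (4.67 to 5.45) that of cow WAT.

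Adra1d (chr3:139246333-139262331), the alpha-1D receptor gene, was highest in the brown depots. By the rule it led in no class there, though most nuclei with it also had Plin1, and it led in the mural class in the cow. Over all nuclei it was at 0.808 CPM (1 UMI) in 10x mesPVAT, 8.45 (14 UMIs) and 17.7 (15 UMIs) in the libraries labelled mesPVAT and RP fat, 38.8 (198 UMIs) for taPVAT, 46.2 (292 UMIs) for BAT and, for cow WAT, 18.9 (318 UMIs). The intervals of the brown libraries (33.6 to 44.6 and 41.1 to 51.8) overlapped each other and lay above all others. In BAT Plin1 nuclei stood at 59.1 CPM (200 UMIs, 51.2 to 67.9), against 2.31 in Ptprb and 6.90 in Notch3 nuclei (1 UMI each) and no UMI in Pdgfra or Ptprc nuclei. The Plin1 over Ptprb ratio was 25.6 (4.54 to 1015). The rule adds 1 UMI to each class, which weighs most in the 19 Pdgfra nuclei of BAT. Plin1 was found in 97.9% (95.3 to 99.3) of the Adra1d nuclei of BAT, beside 85.4% from depth. In taPVAT the share was 93.1% (88.2 to 96.4), beside 83.2%. In taPVAT Plin1 nuclei were at 48.7 (124 UMIs, 40.5 to 58.1) and Notch3 nuclei at 58.0 on 4 UMIs (15.8 to 148.5). In cow WAT the Ptprc background stood at 17.0 CPM (15 UMIs). The Notch3 nuclei led there at 74.8 (91 UMIs, 60.2 to 91.8), beside 12.4 in Plin1, 3.23 in Pdgfra and 2.63 in Ptprb nuclei. That was 5.67 times the next class, or 1.90 and no lead with overlapping classes, and Plin1 over Notch3 was 0.166 (0.0850 to 0.298) in cow WAT and 8.57 (1.52 to 340) in BAT. Of the nuclei with Adra1d, 87.9% in taPVAT and 89.3% in BAT also held Adra1a, where 45.9% and 58.1% of all nuclei did and depth alone would give 73.5% and 78.7%. Nuclei with Adra1d were the deeper ones, with medians of 2858 and 3140 UMIs.

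**Figure D4:**
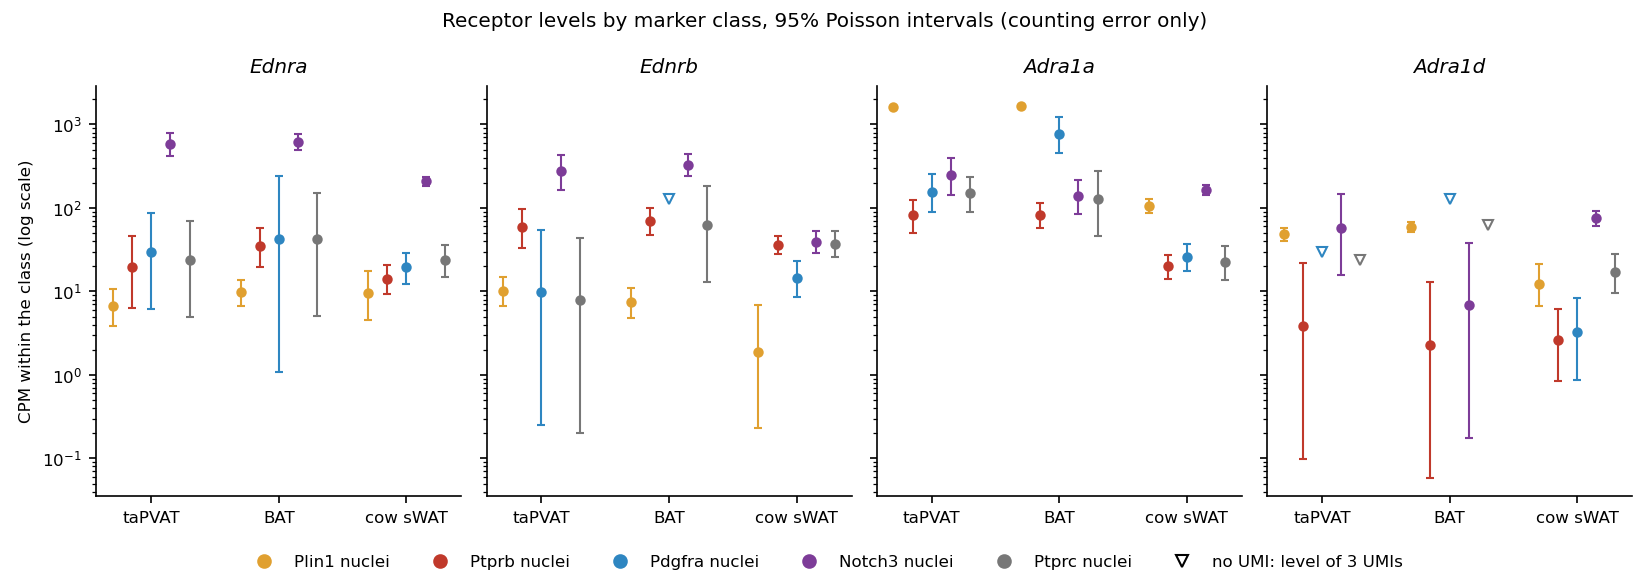
CPM on a log axis of Ednra, Ednrb, Adra1a and Adra1d within nuclei of each single-marker class in taPVAT, BAT and cow WAT, with 95% Poisson intervals; open triangles are classes with no UMI, at the level of 3 UMIs. Ednra stands highest in Notch3 nuclei in all 3 (580, 621 and 210.3 CPM), while Adra1a stands highest in Plin1 nuclei in taPVAT and BAT (1600 and 1682) and in Notch3 nuclei in cow WAT (165).

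Adra1b (chr10:28756461-28874831), the alpha-1B receptor gene, was scarce in the brown depots. It was at 7.27 CPM (9 UMIs) in 10x mesPVAT, 25.95 (43 UMIs, 18.8 to 35.0) and 27.2 (23 UMIs, 17.3 to 40.8) in the libraries labelled mesPVAT and RP fat, 3.92 (20 UMIs, 2.40 to 6.06) for taPVAT, 3.32 (21 UMIs, 2.06 to 5.08) for BAT and, for cow WAT, 10.1 (170 UMIs, 8.64 to 11.7). The white rat Parse libraries stood above the brown ones with no overlap. Of all genes tested, 45.2% were at least 2-fold lower in taPVAT than in the library labelled mesPVAT. For BAT against that labelled RP fat it was 49.6%. The interval of 10x mesPVAT (3.33 to 13.8), also white fat, overlapped those of the brown libraries. Cow WAT had enough UMIs for a class, and Adra1b led in Notch3 nuclei at 26.3 CPM (32 UMIs), 3.73 times the next class (1.73 with overlapping classes, no longer a lead), with 14.7 (7.85 to 25.2) in Ptprc nuclei. In BAT 13 of the 17 nuclei with Adra1b had Notch3, 76.5% (50.1 to 93.2) beside 14.6% from depth, though only 4 of its UMIs lay in nuclei with Notch3 alone.

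Adra2a (chr1:263066780-263069580), the alpha-2A receptor gene, was at the limit of detection in every rat library. It had 1 UMI in 10x mesPVAT (0.808 CPM), none in the library labelled mesPVAT, 1 in that labelled RP fat (1.18 CPM), 2 in taPVAT (0.392 CPM) and 3 in BAT (0.475 CPM). In the library labelled mesPVAT 0 of 3028 nuclei held it, where 3 counts would be a share of 0.0991% and a level of 1.81 CPM and the exact upper bounds are 0.122% and 2.23 CPM. These limit the nuclei with a UMI, at a median of 346 UMIs per nucleus, not the nuclei that express the gene. Cow WAT, the deepest library, had 44 UMIs in 39 nuclei, 2.62 CPM (1.90 to 3.51) and 1.70% of nuclei. Of those 39, 24 had Notch3, 61.5% (44.6 to 76.6) beside 39.0% from depth, and the level was 9.04 CPM in Notch3 nuclei (11 UMIs), 0.953 in Plin1 (1 UMI), 1.58 in Ptprb (3 UMIs) and 1.13 in Ptprc nuclei (1 UMI). A difference among the rat depots was not detectable at this depth.

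Htr2a (chr15:56360647-56428703), the 5-HT2A receptor gene, was also higher in the white rat Parse libraries than in the brown ones. The levels were 1.62 CPM (2 UMIs) in 10x mesPVAT, 29.6 (49 UMIs, 21.9 to 39.1) and 35.5 (30 UMIs, 23.9 to 50.7) in the libraries labelled mesPVAT and RP fat, 6.08 (31 UMIs, 4.13 to 8.63) for taPVAT, 5.22 (33 UMIs, 3.60 to 7.34) for BAT and, for cow WAT, 6.36 (107 UMIs, 5.21 to 7.68). The last 3 overlapped and the white rat Parse libraries lay above them. The 10x mesPVAT library, also white fat, did not, and its interval (0.196 to 5.84) overlapped those of the last 3. A 2-fold lower level in taPVAT than in the library labelled mesPVAT was found for 45.2% of all genes tested. For BAT against that labelled RP fat it was 49.6%. In cow WAT it led in Notch3 nuclei at 13.15 CPM (16 UMIs), 2.42 times the next class, though Ptprc nuclei were at 9.07 (3.92 to 17.9) and the lead was 1.61 times with classes from marker lists and 1.15 with overlapping ones. In BAT the Notch3 nuclei stood at 41.4 CPM on 6 UMIs against 2.36 in Plin1 nuclei, and nuclei that were mural-like by the marker list at 35.5 (16 UMIs, 20.3 to 57.6) against 2.86 in adipocyte-like ones (13 UMIs). In taPVAT nuclei with Notch3 alone held 0 UMIs. Pdgfra was found in 25.9% (11.1 to 46.3) of Htr2a nuclei in taPVAT, beside 8.24% from depth. It was in 18.4% (7.74 to 34.3) in the library labelled mesPVAT, beside 4.92%. In the library labelled RP fat, BAT and cow WAT the Pdgfra intervals included the share from depth.

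Htr2b (chr9:94184442-94206851), the 5-HT2B receptor gene, never reached 20 UMIs over the 4 classes. Its levels were 21.8 CPM (27 UMIs, 14.4 to 31.7) in 10x mesPVAT, 6.64 (11 UMIs) and 8.28 (7 UMIs) in the libraries labelled mesPVAT and RP fat, 2.35 (12 UMIs) for taPVAT, 1.43 (9 UMIs) for BAT and, for cow WAT, 2.44 (41 UMIs). The 10x value was above the other 5, its interval overlapping that of the library labelled RP fat (3.33 to 17.1), and 26 of its 27 UMIs were in nuclei with none of the 4 markers. In taPVAT 11 of the 12 nuclei with Htr2b had Plin1, 91.7% (61.5 to 99.8), an interval that holds the 79.8% from depth, and 0 had Notch3. In cow WAT 22 of 38 had Notch3, 57.9% (40.8 to 73.7) beside 39.8% from depth. The level there was 9.04 CPM in Notch3 nuclei (11 UMIs), 1.91 in Plin1 (2 UMIs) and 1.58 in Ptprb nuclei (3 UMIs). Notch3 over Ptprc was 1.99 (0.590 to 8.58) in cow WAT, so Htr2b is not placed in a class.

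Htr1b (chr8:91395405-91414815), the 5-HT1B receptor gene, was higher in the white rat Parse libraries than in the other 4, as Adra1b and Htr2a were. It stood at 107 CPM (177 UMIs, 91.7 to 124) and 173 (146 UMIs, 146 to 203) in those labelled mesPVAT and RP fat, and at 10.5 (13 UMIs) in 10x mesPVAT, 15.1 (77 UMIs, 11.9 to 18.9) in taPVAT, 11.55 (73 UMIs, 9.06 to 14.5) for BAT and, for cow WAT, 0.178 (3 UMIs, 0.0368 to 0.521). Both white Parse libraries thus lay above the other 4, with no overlap, and in both sublibraries (113 and 101, and 177.5 and 166 CPM). Sublibraries are parts of 1 library and not replicates. Many genes shared this direction, with 45.2% of those tested 2-fold lower in taPVAT than in the library labelled mesPVAT. For BAT against that labelled RP fat it was 49.6%. Per nucleus, 5.12% and 4.96% held a UMI, beside 2.77% in taPVAT and 2.63% in BAT, and at 200 UMIs 2.475% and 3.42% beside 0.458% and 0.348%. Thinning left out 476 of 3028 and 1302 of 2805 shallower nuclei of the libraries labelled mesPVAT and RP fat, and none of taPVAT or BAT.

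Htr1b led in no class of the white rat Parse libraries. In the library labelled RP fat it was at 197 CPM (115 to 315) in Plin1, 157 (71.9 to 298.5) in Ptprb, 136 (5 UMIs) in Pdgfra, 87.6 (2 UMIs) in Notch3, 136 (28.1 to 398) in Ptprc and 179 (147 to 216) in nuclei with none of the 4. In that labelled mesPVAT the same classes ran from 34.2 (1 UMI) to 118, with 153 (70.0 to 291) in Ptprc and 126 (101 to 155) in nuclei with no marker. These intervals overlapped those of the Ptprc nuclei, and Htr1b is not placed in a cell type there. The Ptprc values rest on only 3 UMIs (RP fat label) and 9 UMIs (mesPVAT label). Whether Ptprc nuclei express Htr1b themselves was not tested. The overlap therefore cannot tell whether the signal is background, which was not tested either. In taPVAT the Ptprc nuclei stood at 78.75 CPM (10 UMIs, 37.8 to 145) and Plin1 nuclei at 8.26 (21 UMIs, 5.11 to 12.6), Plin1 over Ptprc being 0.105 (0.0473 to 0.249), and immune-like nuclei by the marker list were at 68.9 (37.7 to 116). The Ptprc nuclei were shallower there, with a median of 704 UMIs against 1726 in Plin1 nuclei. In BAT Htr1b met the rule in the Pdgfra class on 1 UMI, in a class of 19 nuclei where 39.8% of all genes tested did so.

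Set against all genes, the contrasts between rat libraries were as follows, for genes with at least 20 UMIs over both and a fold of 2 after adding 1 UMI. Between taPVAT and BAT, 1 of 9 members tested was higher in taPVAT (Edn1, 4.96 times, 1.60 to 20.4), where 5.48% of all genes were, and none lower, where 0.856% were (6.33% in either direction). Between the libraries labelled mesPVAT and RP fat, 1 of 7 was lower (Adra1d, 0.476 times, 0.213 to 1.06, an interval that includes 1, and a direction that turns if the labels are exchanged), beside 9.78% of all genes, and none higher, beside 4.87% (14.7% in either direction). Between 10x mesPVAT and the Parse library labelled mesPVAT, 2 of 8 were higher (Edn1 and Htr2b), beside 22.4%, and 4 lower (Ednra, Adra1b, Htr2a and Htr1b), beside 32.1% (54.5% in either direction). Against the library labelled RP fat the same 2 were higher, beside 28.6%, and the same 4 lower, beside 29.9%.

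Across colour of depot, in pairs added after the data were seen, 2 of 8 members were higher in taPVAT than in the library labelled mesPVAT (Adra1a and Adra1d), where 9.04% of all genes were, and 4 were lower (Adra1b, Htr2a, Htr2b and Htr1b), where 45.2% were (54.3% in either direction). For BAT over that labelled RP fat, 2 of 7 were higher (again Adra1a and Adra1d), beside 14.3%, and 3 lower (Adra1b, Htr2a and Htr1b), beside 49.6% (63.9% in either direction). With the labels turned, Adra1a and Adra1d were again the members higher in taPVAT (2 of 7, beside 14.8%) and in BAT (2 of 8, beside 8.96%), with Adra1d at 2.19 times (1.295 to 3.98) in taPVAT in place of 4.59. The lower members were 3 of 7 (Adra1b, Htr2a and Htr1b), beside 46.8%, and 4 of 8 (those and Htr2b), beside 49.1%. By the paper's methods taPVAT was spun at a lower speed than the white rat depots. The paper also saw no clear break between nuclei and background RNA in the latter. Depot and preparation therefore cannot be told apart in these contrasts. The median log2 ratio of all genes tested was -0.73 and -0.97 in the pairs named first. The log2 ratios of Adra1a, 3.40 and 3.20, and of Adra1d, 2.11 and 1.29, ran against this shift, and those of the lower members with it, Htr1b (-2.81 and -3.89) and Adra1b (-2.69 and -3.03) being farthest below the medians.

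Of 15 further ligands, enzymes and subtypes of the 3 systems, 1 to 6 had enough UMIs in a library, and none led in the Plin1, Ptprb or Notch3 class of any library. Htr4, a receptor coupled to Gs, met the rule in the Pdgfra class of taPVAT, where 6.11% of all genes did, with 29.5 CPM on 3 UMIs, and of BAT on 1 UMI. Htr7, also coupled to Gs, met it in the Pdgfra class of BAT on 1 UMI.

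Of the Gq signalling genes downstream of the alpha-1, ETA and 5-HT2 receptors (16 listed in rat, 14 in cow), 15 were tested in taPVAT and BAT and 14 in cow WAT, and 1 led in the Notch3 class in each, beside 7.66%, 2.18% and 3.36% of all genes. It was Rgs5, a regulator of G protein signalling known as a pericyte marker. It stood at 696, 869 and 113 CPM there, 4.24, 6.8 and 8.36 times the next class. Itpr2, an inositol trisphosphate receptor that releases calcium, led in Plin1 nuclei at 3886 CPM in taPVAT and 4281 in BAT, and Rgs2, which restrains Gq, at 108 and 131, the classes in which Adra1a led. The phospholipase C genes Plcb1 and Plcb4 led in Ptprb nuclei in taPVAT, BAT and cow WAT, Plcb4 at 2414, 3448 and 1205 CPM, and Plcb4 did so in the library labelled mesPVAT at 1324. In the Pdgfra class Itpr3, another inositol trisphosphate receptor, led in cow WAT (2.21 times, 68 UMIs) and in the library labelled mesPVAT (2.29 times, 4 UMIs). Prkca, a protein kinase C, and Plcb2 met the rule in the Pdgfra class of BAT on 8 and 0 UMIs, where 39.8% of all genes did. A gene can lead in only 1 class, so this large share lowers that of the Notch3 class of BAT, 2.18%. Rgs5 is also one of the genes that name mural nuclei in the marker lists.

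Over the 4 classes of taPVAT, BAT and cow WAT (12 points, log2 of CPM + 10 centred within each library, 6093 candidate genes), the genes most like Ednra were Acta2 (r = 0.974), Notch3 (0.970) and Pdgfrb (0.961). Notch3 itself defines a class, and points share libraries and depth, so these are descriptions. Those most like Ednrb were Afap1l2 (0.978), Inpp4b (0.964) and Chn1 (0.949). For Adra1a they were Ganc (0.929), Prkaa2 (0.928) and Usp16 (0.920), and for Adra1d Ankrd6 (0.941), Cabcoco1 (0.900) and Epb41l1 (0.898).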

How the data were processed

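For the Parse libraries the authors aligned reads with split-pipe to GRCr8 (rat) or ARS-UCD1.3 (cow), and processed the 10x library with Cell Ranger, for which their methods give Rnor_6.0. Of its 25629 gene identifiers 19834 also occur in the GRCr8 libraries, and all 10 members have the same identifier in both. Which build the 10x library used was not tested. The deposited values are UMI counts per gene and barcode, not normalized, and the labels also list FastQC and Scanpy. Members, markers and gene lists were chosen with earlier results of these data known. The genes named are the 10 members, listed subtypes and Gq genes that led in a class, and the 3 genes most alike in pattern. All deposited nuclei were used, no doublet caller was run, and nuclei with several of the 4 markers were left out of the classes, which does not remove all doublets. Sums, exact Poisson, binomial and conditional binomial intervals and expected shares after thinning were computed with Python 3.11.15, numpy 2.4.6, scipy 1.17.1, pandas 2.3.3 and matplotlib 3.10.9, and the lead and contrast rules were tested on simulated data with seed 20. Shares expected from depth are the mean, over the nuclei with a member, of the share with the marker among nuclei of similar depth (10 bins of UMIs). Marker-list classes need at least 2 marker UMIs and no tie. Total UMIs were 845316 to 16827260 per library, so 1 UMI of the smallest weighs most. Alternatives were the study's filters (100 to 15000 UMIs, at most 4500 genes and 3% mitochondrial UMIs, within 5 median absolute deviations), single sublibraries, other denominators and weights, other folds (1.5 and 3) and minimum UMIs (10 and 50), overlapping or marker-list classes, and, added after the data were seen, nuclei with at least 500 UMIs, 2 further pairs of libraries, and the labels of the white rat Parse libraries exchanged. Intervals and limits cover counting error only.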

Additional observations from a re-analysis of the deposited data

Results flagged for a closer look

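The class in which Adra1a stood highest differed between libraries. The CPM in Plin1 nuclei over that in Notch3 nuclei was 6.49 in taPVAT (interval 4.05 to 11.2) and 12.2 in BAT (7.89 to 19.98), and 0.641 in cow WAT (0.503 to 0.812). In the white rat Parse libraries it was 0.402 (0.165 to 1.18, mesPVAT label) and 0.529 (0.165 to 1.97, RP fat label). Both of these intervals include 1. The 2 brown rat libraries thus stood above 1 and the cow library below. With 1 library per condition this difference was not tested, and species, sex, depot and details of nuclei isolation cannot be told apart. Plin1 itself, in Plin1 nuclei, was 5.04 times (4.67 to 5.45) as high in taPVAT as in cow WAT. The part that this has in the difference was not tested.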

How the results depend on the processing

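No paired analysis was possible because each condition has 1 library, and for the same reason no replicate could be left out. Members leading in the Notch3 class numbered 1 in place of 0 in 10x mesPVAT, 1 in place of 0 in the library labelled mesPVAT, 0 in place of 1 in that labelled RP fat and 4 in place of 2 in BAT when classes came from marker lists. With overlapping classes the cow WAT count fell from 4 to 1 and that of the library labelled RP fat from 1 to 0. The 1 lead in that labelled RP fat was also 0 at 3-fold, with at least 50 UMIs of the gene and with at least 500 UMIs per nucleus. Members past the fold between taPVAT and BAT numbered 1, 3 at 1.5-fold, and 0 with at least 50 UMIs, with the study's filters and with at least 500 UMIs per nucleus. Between the libraries labelled mesPVAT and RP fat the 1 became 2 at 1.5-fold and 0 at 3-fold and under those same 3 settings. Between 10x and Parse mesPVAT the 6 became 3 with at least 500 UMIs per nucleus, which 95.55% of 10x nuclei do not reach. With overlapping classes Adra1a no longer led in Plin1 nuclei of taPVAT (1.56 times) or BAT (1.68). Exchanging the labels of the white rat Parse libraries left 6, 5 and 6 members past the fold in place of 6, 6 and 5 for 10x mesPVAT, taPVAT and BAT. Causes were not tested where a setting does not itself remove genes or nuclei. The single CPM values moved beyond their interval in 5 of 60 cases with the study's filters, 9 without the top gene, 10 with at least 500 UMIs and 17 with each nucleus weighted alike, where Adra1a became 842 CPM in taPVAT and 1065 in BAT. Shares moved in 42 of 60 cases at 200 UMIs and 45 at 500, as depth sets them.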
